A study of Mus musculus with 4 samples.

Results

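The leukocyte integrins and the adhesion molecule ICAM-1 were followed as a family of 10 genes in cultured mouse microglia. They were picked by gene name, with earlier results of these data already known: Itgal, Itgam, Itgax, Itgb2, Itga4, Itga5, Itgav, Itgb3, Itgb7 and Icam1. All 10 were found among the 51732 gene symbols of the deposited table, and all 10 passed the filter on low counts. Itgam was listed as 2 overlapping gene models, which were summed.

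Microglia are the resident macrophages of the brain. Here they came from newborn C57BL/6 mice, whose dissociated brain cells had been kept for 2 weeks as a mixed glial culture before the loosely attached cells were shaken off. One group was a mock control, which the labels call untreated (2 libraries), and the other received lysophosphatidylserine (LysoPS), a lysophospholipid that activates the receptor GPR34, for 4 h (2 libraries). No genetic change was named for either group, and the dose and the number of animals or cultures behind each library were not given. The p-values therefore measure the spread between these samples only, which may be technical.

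Integrins are membrane receptors made of 1 α and 1 β chain, and neither chain reaches the cell surface well without the other. The β2 chain (Itgb2, CD18) pairs with αL (Itgal) to form LFA-1, with αM (Itgam, CD11b) to form Mac-1 or complement receptor 3, and with αX (Itgax, CD11c) to form complement receptor 4. ICAM-1 is a ligand of LFA-1 and Mac-1 on the facing cell, and Mac-1 also binds the complement fragment iC3b, through which microglia take up tagged debris and synapses.

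The libraries held between 30001098 and 45193959 counts. Read counts were scaled to CPM (counts per 1e6 reads, after TMM), a ± stands for the SD of the 2 libraries of a group, and log2 fold changes are LysoPS over mock. Levels are compared between genes only as deposited TPM, which is per transcript length. In edgeR's quasi-likelihood test, 4859 of 19056 genes passed a Benjamini-Hochberg adjusted p of 0.05 (25.5%), 2453 of them higher (12.9%) and 2406 lower (12.6%). Markers of other cells were abundant beside those of microglia. The 18 microglia and macrophage markers, all of them detected, summed to 3796 and 3433 CPM in the mock libraries and to 6932 and 6236 in the LysoPS libraries. Of the markers particular to microglia, Tmem119 was at 53.4 to 57.0 CPM in all libraries, while Cx3cr1 differed between replicates (133 and 13.4 CPM in mock, 176 and 19.5 after LysoPS). P2ry12 rose from 7.14 and 10.2 to 14.5 and 16.7 CPM (edgeR adjusted p = 0.0357), a call lost without mock replicate 1 or either LysoPS library. The 10 astrocyte markers, led by Gfap and Aqp4, summed to 11460 and 10350 CPM in mock and to 5586 and 6347 after LysoPS. The 6 fibroblast and mural cell markers, which include Col1a1, Col1a2 and Col3a1, summed to between 9701 and 9769 CPM in mock and between 8786 and 8939 after LysoPS. In bulk RNA, more cells of a type and more RNA per cell cannot be told apart.

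After 4 h of LysoPS, every member of the β2 branch that was followed was higher: Itgal 19.8-fold, Itgam 3.78-fold, Itgb2 3.07-fold and Itgax 2.51-fold. Icam1 was 4.91-fold higher, and the α4 and α5 chains were 2.14-fold and 2.48-fold higher. The β3 chain Itgb3 was the 1 member that fell, to 0.642 of its mock level, and Itgav and Itgb7 did not pass the test. In all, 7 of the 10 members passed higher and 1 lower, against 12.9% and 12.6% of all tested genes. The median log2 fold change was 1.47 over the 10 members and -0.01 over all tested genes. Itgb7 passed the count filter only through its LysoPS libraries, and without it the median over the other 9 was 1.33. The markers of microglia and of astrocytes moved between the same groups as these genes, as the sums above show, and their part in the members' changes was not tested.

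**Figure D1:**
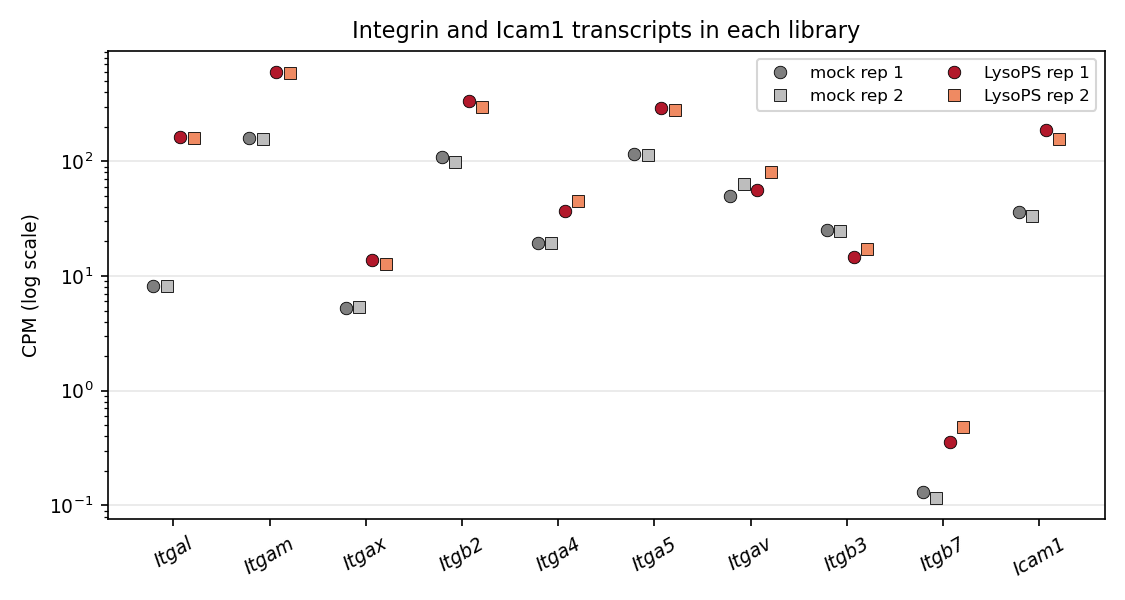
Level of each of the 10 members in each library, in CPM on a log axis, with mock and LysoPS libraries in separate colours. Both LysoPS libraries lie below both mock libraries only for Itgb3, while the Itgav libraries of the groups overlap.

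Promoter sequence was matched for 7 of the 10 members (Itgam, Itgax, Itga4, Itga5, Itgav, Itgb7 and Icam1) in RefSeq's annotation of GRCm38.p6. Those of Itgam, Itgax and Icam1 are shown because these 3 genes encode β2 integrin chains or their ligand and all 3 rose. Each run lies on the forward strand. Those of Itgam and Icam1 have 250 bases and end just before the annotated start of transcription. That of Itgax has 247 bases and stops short of it, and positions of motifs are counted from the start itself. Itgam is at chr7:128062390-128062639, Itgax at chr7:128129300-128129546 and Icam1 at chr9:21015690-21015939. Capitals mark matches to the motifs that were searched.
Itgam: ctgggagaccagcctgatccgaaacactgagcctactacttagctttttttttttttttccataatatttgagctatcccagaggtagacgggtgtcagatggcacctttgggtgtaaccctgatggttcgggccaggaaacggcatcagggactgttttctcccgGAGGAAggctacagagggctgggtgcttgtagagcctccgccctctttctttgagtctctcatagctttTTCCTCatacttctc
Itgax: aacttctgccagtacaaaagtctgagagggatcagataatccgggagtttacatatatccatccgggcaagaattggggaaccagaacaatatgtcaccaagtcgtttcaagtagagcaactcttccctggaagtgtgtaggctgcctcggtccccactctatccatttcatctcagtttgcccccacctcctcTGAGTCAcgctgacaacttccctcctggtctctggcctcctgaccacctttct
Icam1: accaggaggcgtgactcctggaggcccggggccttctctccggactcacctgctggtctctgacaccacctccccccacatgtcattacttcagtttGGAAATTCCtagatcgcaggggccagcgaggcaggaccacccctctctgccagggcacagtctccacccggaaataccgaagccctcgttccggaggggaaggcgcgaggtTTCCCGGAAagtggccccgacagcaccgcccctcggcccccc

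The motif GAGGAA, the core that the myeloid transcription factor PU.1 binds, was found in the Itgam run from 84 to 79 bases and, on the other strand, from 15 to 10 bases before the start. It was present in 28.3% of the 32851 RefSeq promoters (250 bases before to 50 after the start, both strands) and in 4 of the 7 members. The longer GAGGAAGT, which contains GAGGAA, was present in 3.20% of promoters and in 2 members, Itgav and Itgb7. The AP-1 motif TGANTCA was found in Itgax, from 56 to 50 bases before the start, and in 7.81% of all promoters. The STAT motif TTCNNNGAA was found in Icam1, from 42 to 34 bases before the start, and in 8.30% of all promoters. The NF-kappaB consensus matched none of the 7 members and 8.46% of all promoters. The related GGAAATTCC, looked for only after the Icam1 sequence had been seen, lay from 153 to 145 bases before the Icam1 start and was present in 0.317% of all promoters. These matches describe letters in a window, and no binding was measured.

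Itgal, the αL chain of LFA-1, changed by the largest factor of the 10 members. It was at 8.11 and 8.21 CPM in the mock libraries and at 164 and 159 CPM in the LysoPS libraries. The LysoPS libraries were both far above both mock libraries, and the replicates of each group lay close together. The mean went from 8.16 ± 0.0663 (SD, n = 2) to 161 ± 3.37 CPM (n = 2), a log2 fold change of 4.30 (SE 0.0715, edgeR quasi-likelihood adjusted p = 0.000243). Ordered by log2 fold change, it was at rank 81 of 19056 tested genes. Itgal (ENSMUSG00000030830) lies on the forward strand of chromosome 7 at 127296260 to 127335138 (GRCm38).

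Itgam, the αM chain, was the most abundant member per transcript length in both groups. Summed over its 2 models it was at 159 and 155 CPM in mock and at 600 and 590 CPM after LysoPS. Both LysoPS libraries lay above both mock libraries, and the replicates were again close. The log2 fold change of the sum was 1.92 (SE 0.0561, edgeR quasi-likelihood adjusted p = 0.000323).

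The split between the 2 Itgam models differed between replicates and was not a measure of Itgam. The model ENSMUSG00000030786 (chromosome 7, 128062640 to 128118491) held 4896 and 4847 counts in mock and 12305 and 10347 after LysoPS. The model ENSMUSG00000108596 (128062683 to 128128160), which GENCODE M21 calls Gm49368 and which reaches to within 1387 bases of Itgax, held 1 and 1873 counts in mock and 7768 and 15422 after LysoPS. The first model thus took 99.98% of the Itgam counts in mock replicate 1, 72.1% in mock replicate 2, 61.3% in LysoPS replicate 1 and 40.2% in LysoPS replicate 2. Tested alone, the first model had a log2 fold change of 1.16 (edgeR quasi-likelihood adjusted p = 0.0316) and the second one of 3.73 (adjusted p = 0.160). Neither value was close to the 1.92 of their sum.

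**Figure D2:**
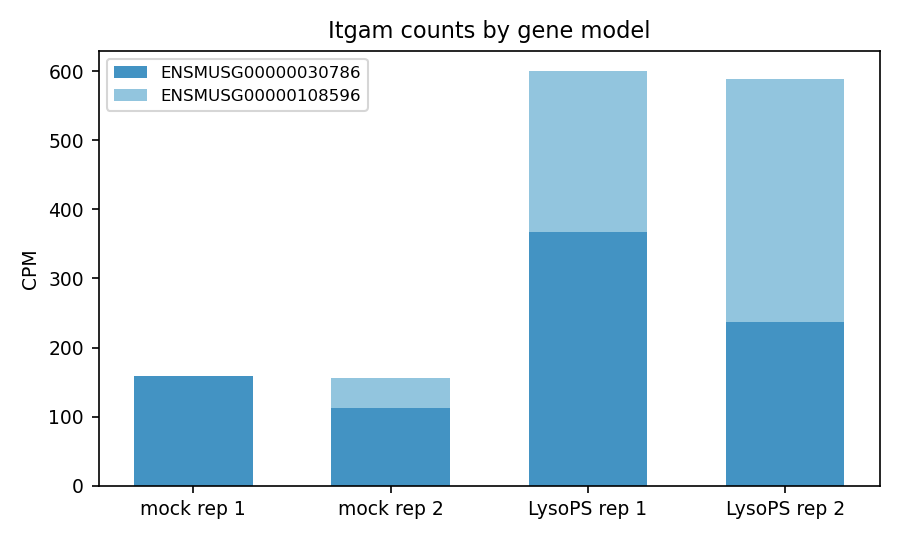
CPM of the 2 overlapping Itgam gene models in each library as stacked bars that start at 0. The height of the whole bar is alike between replicates (159 and 155 in mock, 600 and 590 after LysoPS), while the share of each model is not.

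Itgax, the αX chain, is often used as a mark of dendritic cells and of activated microglia. It was low, at 5.29 and 5.34 CPM in mock and at 13.9 and 12.8 CPM after LysoPS, and the groups did not overlap. Its log2 fold change was 1.32 (SE 0.118, edgeR quasi-likelihood adjusted p = 0.00258). Among 5 dendritic cell markers, 0 of the 3 tested passed the edgeR test, their summed level was 9.12 and 8.93 CPM in mock and 8.99 and 11.8 after LysoPS, and Cd209a was at 0 in every library.

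Itgb2, the shared β2 chain, was at 109 and 98.0 CPM in mock and at 336 and 299 CPM after LysoPS. Both LysoPS libraries were higher, and its replicates were further apart than those of Itgal or Itgam. The log2 fold change was 1.62 (SE 0.0908, edgeR quasi-likelihood adjusted p = 0.000776), a value above which 2.93% of all tested genes lay. Itgb2 (ENSMUSG00000000290) lies apart from its α partners, on chromosome 10 at 77530252 to 77565708.

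Because an α chain needs Itgb2, the α to Itgb2 ratios were compared per transcript length. The ratio of Itgal to Itgb2 in TPM was 0.0497 and 0.0576 in mock and 0.292 and 0.312 after LysoPS, a log2 difference of 2.50. The ratio of Itgam to Itgb2 was 1.18 and 1.21 in mock and 1.28 and 1.33 after LysoPS, a log2 difference of 0.12. The Itgam TPM is a sum over 2 models that differ in TPM per count, so this ratio also moves with the split between them. In LysoPS replicate 1, 12305 counts of the first model stood for 196 TPM and 7768 of the second for 91.1. In CPM the log2 fold changes were 1.92 for Itgam and 1.62 for Itgb2. The ratio of Itgax to Itgb2 was 0.0338 and 0.0441 in mock and 0.0300 and 0.0294 after LysoPS, a log2 difference of -0.38 that was -0.57 without mock replicate 1 and -0.19 without mock replicate 2. The groups did not overlap for any of the 3 ratios, and the exact permutation test gave p = 0.333 each time, the smallest that 2 against 2 libraries allow.

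Counted as a share of the summed αL, αM and αX transcripts, Itgal made up 3.92% and 4.38% in mock and 18.2% and 18.7% after LysoPS. Itgam made up 93.4% and 92.3% in mock and 79.9% and 79.5% after LysoPS, so that it remained the main β2 partner at the RNA level in each library. Itgax made up between 2.67% and 3.35% in mock and between 1.76% and 1.88% after LysoPS. The sum of the 3 α chains over Itgb2 was 1.27 and 1.31 in mock and 1.60 and 1.67 after LysoPS. This sum and the shares also move with the split between the Itgam models. Itgad, which encodes the remaining β2 partner αD and lies next to Itgax, had 0 counts in every library.

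**Figure D3:**
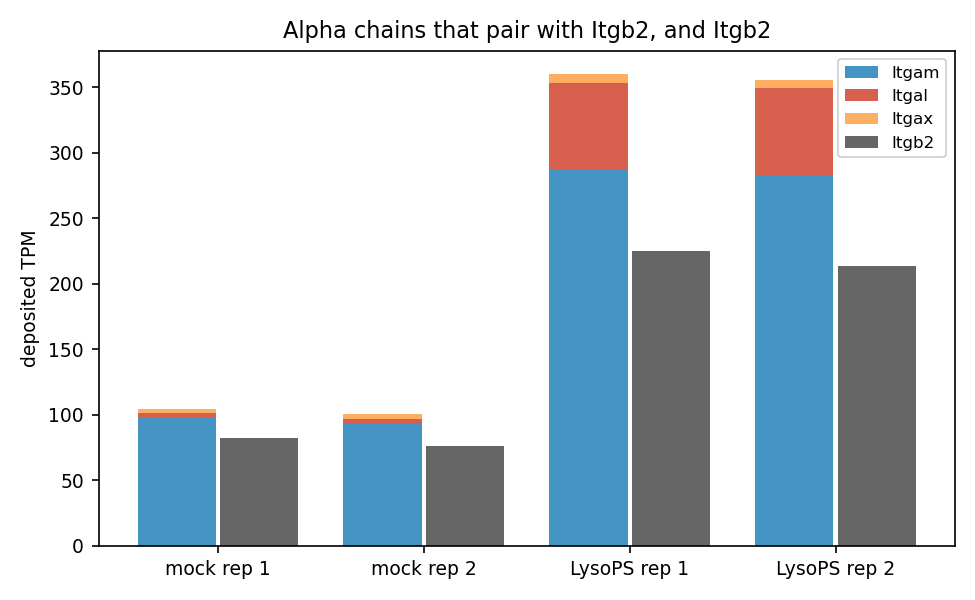
TPM of Itgal, Itgam and Itgax in each library as stacked bars that start at 0, with the TPM of their shared partner Itgb2 marked. The Itgal share is 3.92% and 4.38% in the mock bars and 18.2% and 18.7% in the LysoPS bars.

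Icam1, the ligand, rose as well. It was at 36.4 and 33.6 CPM in mock and at 187 and 157 CPM after LysoPS. Both LysoPS libraries were above both mock libraries, with the LysoPS replicates further apart than the mock replicates. The mean went from 35.0 ± 1.95 (SD, n = 2) to 172 ± 21.01 CPM (n = 2), with a fold change of 4.91 and an SE of 0.108 on the log2 scale (edgeR quasi-likelihood adjusted p = 0.000527). Icam1 (ENSMUSG00000037405) lies on chromosome 9 at 21015985 to 21028817.

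The α4 chain Itga4 pairs with β1 to form VLA-4, a receptor for VCAM-1 and fibronectin, and with β7 to bind MAdCAM-1. Itga4 was at 19.4 and 19.2 CPM in mock and at 37.2 and 45.4 CPM after LysoPS, a log2 fold change of 1.10 (SE 0.120, edgeR quasi-likelihood adjusted p = 0.00432). Its possible partner Itgb7 was close to the limit of detection, with 4 and 5 counts in mock and 12 and 21 counts after LysoPS. Its groups did not overlap, but it did not pass the test (log2 fold change 1.77, SE 0.531, edgeR quasi-likelihood adjusted p = 0.0583). The other partner, the β1 chain Itgb1, was abundant in all libraries, at 724 and 746 CPM in mock and 835 and 878 CPM after LysoPS. Its log2 fold change was 0.22 (edgeR quasi-likelihood adjusted p = 0.0485), and it no longer passed without either mock library or without LysoPS replicate 2.

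The α5 chain Itga5, which pairs with β1 as a fibronectin receptor, was at 116 and 114 CPM in mock and at 289 and 280 CPM after LysoPS. The groups were far apart and the replicates close, with a log2 fold change of 1.31 (SE 0.0606, edgeR quasi-likelihood adjusted p = 0.00047). Itgav and Itgb3 together form αvβ3, a receptor for vitronectin and osteopontin, and they did not move like the others. Itgav was at 49.9 and 63.8 CPM in mock and at 56.6 and 81.1 CPM after LysoPS. Its groups overlapped, and its log2 fold change of 0.28 did not pass the test (SE 0.207, edgeR quasi-likelihood adjusted p = 0.377). In both groups the replicate 2 library of Itgav was the higher one, and within each replicate number the LysoPS library was above the mock library. With the replicate number added to the fit, Itgav still did not pass (SE 0.0759, edgeR quasi-likelihood adjusted p = 0.0631).

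Itgb3 was at 25.4 and 24.4 CPM in mock and at 14.7 and 17.3 CPM after LysoPS. Both LysoPS libraries were below both mock libraries, a log2 fold change of -0.64 (SE 0.115, edgeR quasi-likelihood adjusted p = 0.0170). The call was lost without mock replicate 1 (log2 fold change -0.61, adjusted p = 0.0799 by the same edgeR test) and without mock replicate 2 (-0.67, adjusted p = 0.0620). Itgb3 is also the β chain of the platelet integrin. The 4 platelet and megakaryocyte markers summed to 1.82 and 1.71 CPM in mock and to 2.90 and 1.58 after LysoPS, and 0 of the 2 tested passed.

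Per transcript length, the members spanned from Itgam at 94.9 TPM to Itgb7 at 0.0915 TPM in mock. The order below Itgam in mock was Itgb2 (79.3 TPM), Itga5 (57.0), Icam1 (30.04), Itgav (22.1), Itgb3 (9.33), Itga4 (4.35), Itgal (4.24), Itgax (3.07) and Itgb7. Of these neighbours, only Itga4 and Itgal overlapped between their replicates. After LysoPS the order was Itgam (285 TPM), Itgb2 (219), Icam1 (130 ± 11.4, SD, n = 2), Itga5 (125 ± 1.32, n = 2), Itgal (66.1), Itgav (24.0), Itga4 (8.24), Itgax (6.51), Itgb3 (5.32) and Itgb7 (0.295). Here only Icam1 and Itga5 overlapped. Itgal moved from place 8 to place 5, and Itgb3 fell below Itga4, Itgal and Itgax. Fold changes in deposited TPM were smaller than those in CPM, at 15.6 for Itgal, 3.00 for Itgam, 2.77 for Itgb2 and 4.33 for Icam1. Over 19020 tested genes the log2 TPM fold was lower than the log2 CPM fold by a median of -0.17.

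The 17 other integrin subunits were mixed: of 15 tested, 2 passed higher and 4 lower (median log2 fold change -0.18), against 12.9% and 12.6% of all tested genes. Itga9, an α chain that pairs with β1 and binds VCAM-1 and osteopontin, rose from 15.2 and 11.9 to 66.3 and 65.4 CPM (log2 fold change 2.28, SE 0.128, edgeR quasi-likelihood adjusted p = 0.00081). The collagen receptor chains Itga11 (log2 fold change -0.997) and Itga10 (-1.09) fell, with edgeR adjusted p-values of 0.00324 and 0.0107. The transcript length that counts and FPKM imply varied by 1.47 times between libraries for Itga10, and its part in that fold change was not tested. The β5 chain Itgb5, an alternative partner of αv, was at 203 and 199 CPM in mock and at 152 and 150 CPM after LysoPS (log2 fold change -0.41, edgeR adjusted p = 0.00928), a call that was lost without either mock library. Itga9 was higher and Itga10 and Itga11 were lower whichever library was left out.

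**Figure D4:**
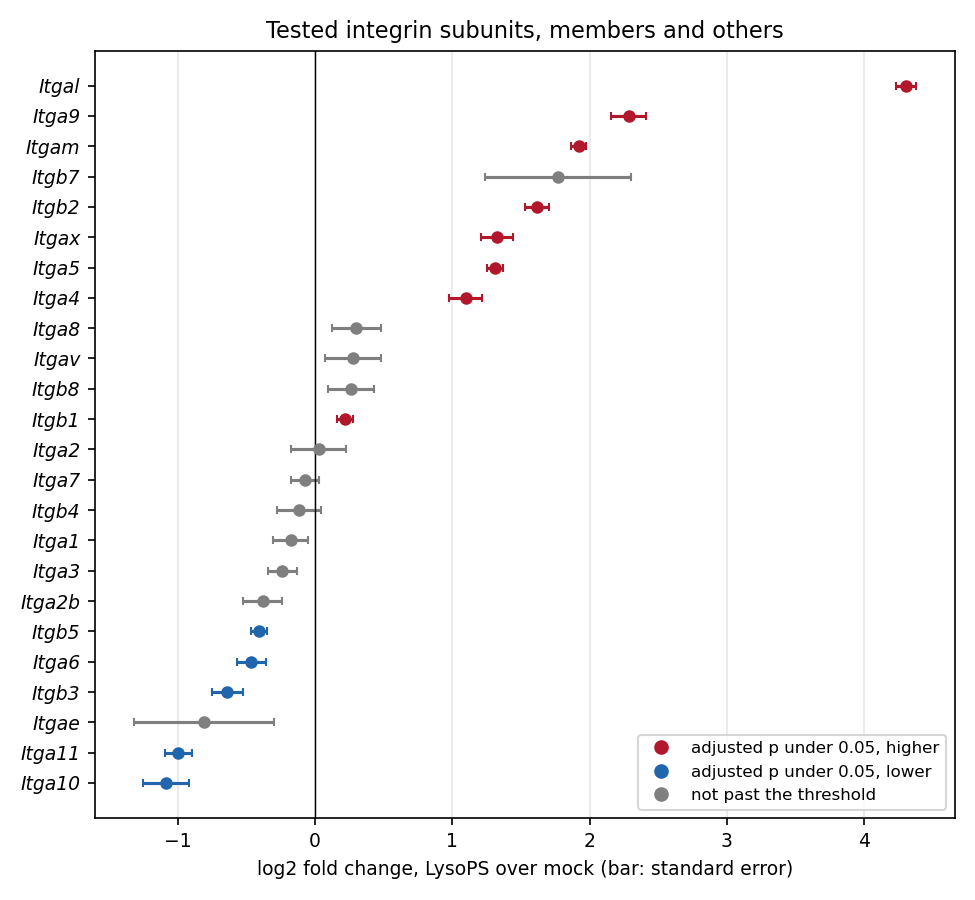
Log2 fold change of LysoPS against mock (horizontal axis) for each tested integrin subunit, with its standard error. Itgal at 4.30 lies furthest to the right, followed by Itga9 at 2.28, and Itga10 and Itga11 lie furthest to the left.

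Ligands of these receptors moved in both directions: of 14 tested of 18, 4 passed higher and 6 lower (median log2 fold change -0.28), against 12.9% and 12.6% of all tested genes. The soluble and membrane ligands that rose were C3, the source of the Mac-1 ligand iC3b, Vcam1, Tgfb1 and Madcam1. C3 was at 94.8 and 75.9 CPM in mock and at 846 and 727 after LysoPS (log2 fold change 3.20, edgeR adjusted p = 0.000441). Vcam1, a membrane ligand of VLA-4, was at 111 and 102 CPM in mock and at 480 and 419 after LysoPS (2.08, SE 0.0909, edgeR adjusted p = 0.000447). Tgfb1, whose latent form is bound by αv integrins, rose from 74.2 and 74.0 to 164 and 146 CPM (1.06, edgeR adjusted p = 0.00165). Madcam1 was low, with 26 and 6 counts in mock and 216 and 232 after LysoPS (3.68, edgeR adjusted p = 0.0161). Its fold change was 2.79 without mock replicate 2 and 5.37 without mock replicate 1, on the log2 scale. All 4 higher calls and 3 of the 6 lower calls of this list held whichever library was left out.

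The 6 lower ligands were Spp1, Fn1, Vtn, Jam2, Jam3 and Thy1. Osteopontin (Spp1) fell from 1340 and 1377 to 627 and 648 CPM (log2 fold change -1.09, edgeR quasi-likelihood adjusted p = 0.000557). Fibronectin (Fn1), the ligand of α5β1 and VLA-4, fell from 4622 and 4693 to 3009 and 3186 CPM (-0.59, edgeR adjusted p = 0.00311). Among the other ICAM family genes, Icam2 had a log2 fold change of 0.04 and Icam5 one of -0.65 (edgeR adjusted p = 0.0804), while Icam4 had at most 4 counts in a library.

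**Figure D5:**
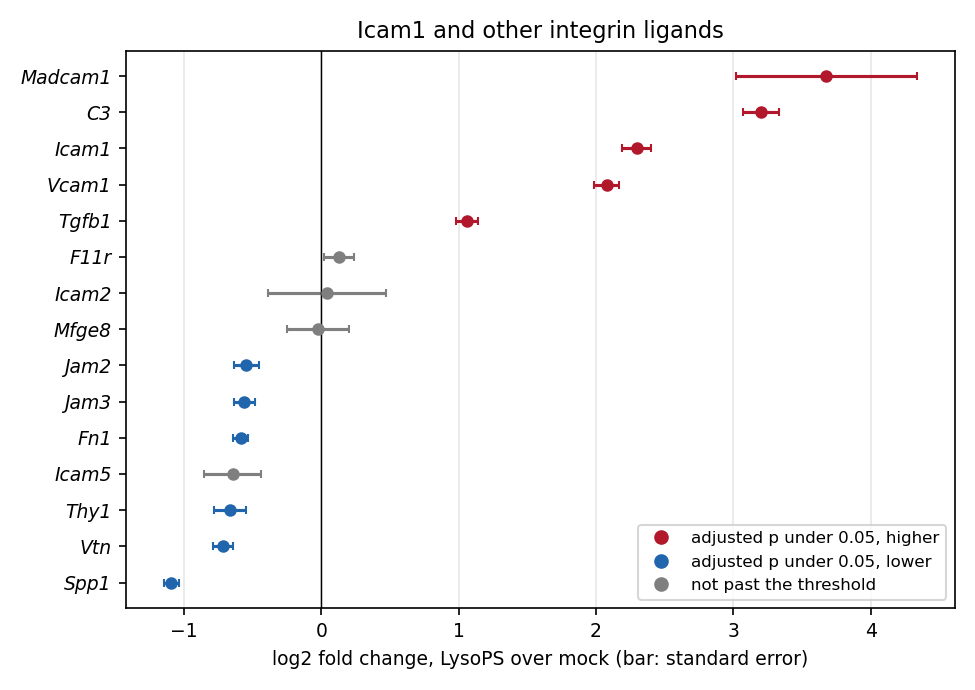
Log2 fold change of LysoPS against mock (horizontal axis) for Icam1 and each tested ligand, with its standard error. Icam1, Vcam1 and C3 lie on the side of higher levels after LysoPS, and Spp1 and Fn1 lie on the side of lower levels.

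Of 26 genes that regulate integrin activation up or down from inside the cell, or tie integrins to actin, 24 were tested. Of these, 10 passed higher and 2 lower (median log2 fold change 0.31), against 12.9% and 12.6% of all tested genes. The members with the smallest p were leukocyte adaptors and a small GTPase. Fyb, the adaptor ADAP, rose from 57.9 and 53.4 to 262 and 266 CPM (log2 fold change 2.25, edgeR adjusted p = 0.000323). Fermt3, the kindlin of blood cells that binds β chain tails, rose from 46.1 and 42.2 to 157 and 143 CPM (1.77, edgeR adjusted p = 0.000553). Rap1b, the GTPase that recruits talin, had a log2 fold change of 1.21 and its effector Apbb1ip (RIAM) one of 1.14, with edgeR adjusted p-values of 0.000527 and 0.00101. When each library was left out in turn, 7 of the 10 higher calls and 0 of the 2 lower calls held throughout. Of 8 other leukocyte adhesion molecules 6 were tested. Cd44, the hyaluronan receptor, rose (1.93, edgeR adjusted p = 0.00241) and Alcam fell (-0.79, edgeR adjusted p = 0.0102).

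Of the cell types such a culture could hold, the microglia and macrophage list had 12 of 18 genes higher and 2 lower (median log2 fold change 0.46), against 12.9% and 12.6% of all tested genes. Of these, 6 of the 12 higher calls and both lower calls held whichever library was left out. Its leading gene by CPM, Adgre1 (F4/80), was at 186 and 148 CPM in mock and at 2037 and 1919 after LysoPS. Without Adgre1 the list summed to 3610 and 3285 CPM in mock and to 4896 and 4317 after LysoPS. The counts were also scaled to the sum of the whole list in place of the library total, a choice made after seeing the data, which moved the median over all tested genes to -0.88. The log2 fold changes were then 3.44 for Itgal, 1.43 for Icam1, 1.055 for Itgam, 0.75 for Itgb2, 0.46 for Itgax, 0.44 for Itga5 and 0.24 for Itga4, and Itga4 no longer passed (edgeR adjusted p = 0.255). Scaled to the list without Adgre1, with a median of -0.43 over all genes, they were 3.89 for Itgal, 1.87 for Icam1, 1.504 for Itgam, 1.1995 for Itgb2, 0.90 for Itgax, 0.89 for Itga5 and 0.69 for Itga4, and all 7 passed.

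Blood cell markers were scarce. Of 7 neutrophil markers, Ly6g, Elane and Mpo were at 0 in every library. The list summed to at most 1.17 CPM in a library. Camp was the 1 gene tested, with 0 counts in mock and 1.17 and 0.618 CPM after LysoPS. It passed the count filter only through its LysoPS libraries and was called higher (log2 fold change 8.06). Of 9 lymphocyte markers, Cd3e, Cd3d, Cd8a and Ncr1 were at 0 in every library. The list, led by Cd4, summed to 3.73 and 3.40 CPM in mock and to 1.82 and 1.88 after LysoPS. Cd4, the 1 gene tested, passed lower (log2 fold change -1.08), a call that was lost without either mock library. The 7 endothelial markers, mostly Cdh5, summed to 345 and 337 CPM in mock and to 166 and 190 after LysoPS. Of 6 tested, 2 passed lower, against 12.6% of all tested genes. The 10 astrocyte markers had 8 lower and 0 higher, and the 6 fibroblast and mural cell markers 2 lower and 0 higher, against 12.6% of all tested genes lower. Of these calls, 5 of the 8 and 1 of the 2 held whichever library was left out. The 5 oligodendrocyte lineage markers had 3 higher, against 12.9% of all tested genes. No higher call of this list held whichever library was left out. The list summed to 114 and 106 CPM in mock and to 151 and 144 after LysoPS.

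Itgal, Itgam and Itgax lie on chromosome 7, with 727502 bases from the end of Itgal to the start of Itgam, 1387 from Itgam to Itgax and 3719 from Itgax to Itgad. Counts of their neighbours that passed the test stand against 12.9% of all tested genes higher and 12.6% lower. Within 50 kb of Itgal, 1 of 7 other tested gene models passed higher and 0 lower (median log2 fold change 0.06). Around Itgam, Itgax and Itgad, 1 of 7 passed higher and 2 lower (median 0.16). The higher one, Gm45700 (log2 fold change 1.67, edgeR adjusted p = 0.0458), lies inside the second Itgam model and held 5 to 22 counts, and reads of that stretch cannot be told apart from those of Itgam. Around Icam1, 1 of 8 passed higher and 0 lower (median 0.22), and Icam4 and Icam5 follow it 556 and then 1478 bases apart.

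Genes whose log2 CPM over the 4 libraries lay closest to that of Itgal, each centred on its mean, were Mmp13 (distance 0.159), Ccl3 (0.171) and Nfkbiz (0.215). Those closest to Itgb2 were Shisa3 (0.0715), Ehd1 (0.0738) and Tnfsf9 (0.0739). Those closest to Icam1 were Cd72 (0.0620), Aif1 (0.0732) and Il2rg (0.0894). With 4 libraries in 2 groups, such closeness describes a like fold change and like replicate spread.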

How the data were processed

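Gene expression was measured by RNA-seq in 4 libraries, 2 mock and 2 LysoPS. Per the labels' protocols, poly-T beads selected the mRNA, and sequencing was paired-end on an MGISEQ2000. The treatment label speaks of 1 treated replicate, but the labels of 2 samples name LysoPS, and these were followed. Per the submitters' processing notes, FastQC 0.11.2, Trimmomatic 0.36, HISAT2 and StringTie were used with GRCm38. Their parameters, the annotation release, the counting program and strandedness are not given in the sources used here. Overlapping or antisense genes may therefore share reads. Per the file headers, the authors' table gives a count, a TPM and an FPKM for each of 51826 gene models. The deposited counts were tested as whole numbers, the deposited TPM values were used to compare levels between genes, and the deposited FPKM values only to repeat the α to Itgb2 ratios and to work out, with the counts, an implied length per library (all 10 members varied by at most 1.18 times).

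The overlapping Itgam models were summed first. R 4.3.3 with limma 3.58.1 and edgeR 4.0.16 was used for the tests. The function filterByExpr (minimum count 10) left 19056 genes, TMM factors lay between 0.966 and 1.04, and the two-sided quasi-likelihood F test, with 2 residual degrees of freedom, was adjusted by Benjamini-Hochberg over these genes (threshold 0.05). The coefficient of biological variation came to 0.150, standard errors are Wald errors from the moderated quasi-likelihood dispersion, and log2 CPM for the comparison of profiles used a prior count of 2. The fit was tested on simulated data. Precision rested on the spread between the 2 libraries of a group as well as on the depth of 30001098 to 45193959 counts per library.

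The members and gene lists were chosen with earlier results of these data known, and no list was tested as a set. Named genes were all members, the 4 tested genes of smallest p in each pathway list, the 2 markers of highest CPM in each list that a sentence uses, and the 3 nearest profiles of Itgal, Itgb2 and Icam1. Some genes that this rule takes are not reported here. Further genes (Itgb1, Madcam1, Fn1, Vtn, Jam2, Jam3, Thy1, Icam2, Icam4, Icam5, Gm45700 and some markers) were named after their values were seen. Alternatives were DESeq2 1.42.0 and its size factors, limma-voom, other filters, a fold threshold, a replicate block and each library left out. Scaling to microglia and macrophage markers, and the motif GGAAATTCC, were added after seeing the data.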

Additional observations from a re-analysis of the deposited data

How the results depend on the processing

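The 7 members called higher kept direction and call in 83 of 83 values under the alternatives planned at the start, and 113 of 117 values over all members did. The 2 Itgam models tested apart stand outside these counts (1.16, called, and 3.73, not called). The lowest and highest log2 fold changes were 4.28 and 4.33 for Itgal, 1.90 and 1.94 for Itgam, 1.53 and 1.70 for Itgb2, and 2.16 and 2.42 for Icam1. Itgav went from -0.0054 without LysoPS replicate 2, a reversal, to 0.51 without LysoPS replicate 1. Besides the losses without a mock library, Itgb3 lost its call against a fold threshold of 1.5 (edgeR adjusted p = 0.743). Itgb7 could not be tested under the filter of 5 CPM and had no adjusted p under DESeq2. Over all genes, the count of calls ranged from 2170 (without mock replicate 2) to 5379 when single libraries were left out. Leaving out a library gave 7 or 8 members called. Against a fold threshold of 1.5 there were 1068 calls (686 higher and 382 lower).

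The replicate block gave 5448 calls and 8 members called, and it changed no member's call. Across genes, the difference between replicates 1 and 2 had a correlation of 0.077 between mock and LysoPS. With 2 pairs this cannot show whether same-numbered libraries belong together. With the block, the standard error fell from 0.207 to 0.0759 for Itgav and from 0.0908 to 0.0487 for Itgb2. Among the members it rose only for Itgax (0.118 to 0.125) and Itgb7 (0.531 to 0.622).

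Scaling to all microglia and macrophage markers, chosen after seeing the data, moved the median of all genes to -0.88 and gave 14507 calls (582 higher and 13925 lower, 4.01% higher against 50.5%). There Itgav was at -0.58 and Itga4 was no longer called (0.24, edgeR adjusted p = 0.255), with 6 members higher. Without Adgre1 there were 7170 calls (856 higher and 6314 lower, 11.9% higher) and Itgav was at -0.13. The cause was not tested. With 2 libraries a group, a ratio cannot reach an exact p under 0.333, and the depth limits what can be said of Itgb7.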
